A study of Mus musculus with 13 samples.

Results

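Expression in the brains of R6/2 mice given a triple drug treatment was compared with that of untreated R6/2 mice, gene by gene, on 3 treated and 4 untreated arrays. These 7 arrays, chosen by their titles, are part of a set of 13 that also holds 3 untreated and 3 treated wild type arrays. Each array (Affymetrix MG-U74Av2) read RNA of a mouse brain hemisphere with 12488 probe sets, which are groups of short probes for 1 transcript. R6/2 mice carry exon 1 of the human huntingtin gene with an expanded CAG repeat as a transgene, in treated and untreated animals alike, and model Huntington's disease. Treated mice received tacrine at 2.7 mg/kg per day from 5 weeks of age, moclobemide at 10 mg/kg per day and creatine at 1% (w/v). The labels list the drugs for untreated samples as well, so treatment was read from the titles, and they state an age at harvest, 8 weeks, for 1 wild type untreated sample only. Nothing in the labels says that the arrays are separate animals, so every p-value measures only the spread between these samples, which may be technical.

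Tacrine blocks cholinesterases, the enzymes that break down acetylcholine at synapses. Moclobemide blocks monoamine oxidase A, which degrades serotonin, noradrenaline and dopamine, and creatine is the substrate from which creatine kinases form phosphocreatine, the fast energy reserve of neurons and muscle. In the R6/2 brain, the mutant huntingtin fragment forms aggregates and neuronal gene expression falls, above all in the projection neurons of the striatum. The comparison asked which transcripts of such a brain differed under the 3 drugs.

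In R6/2 brain no transcript passed the threshold for a treatment difference when all arrays were used. Among the clearest separations, the proteasome subunit Psmb2, the transcription kinase Cdk9, the transcription cofactor Lmo1 and the angiotensin precursor Agt read higher in every treated array than in any untreated array. The ubiquitin ligase Rnf149, the RNA-binding protein Strbp, the membrane protein Tmeff2 and the matrix protease inhibitor Timp3 read lower in every treated array. Of 18 genes that neurons switch on when they are active, 15 had estimates above 0, against 2942 of all 5676 genes. Their median log2 difference was 0.22 against 0.02 for all genes. Untreated arrays 2 and 3 stood apart from the rest, so values without them are given as well.

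The deposited signals had been brought to a common level, with a median over gene probe sets of 39.6 to 45.1 per array. The untreated arrays did not form a tight group. On the first principal component (33.9% of the variance) untreated arrays 3 and 2 scored 45.7 and 25.4, untreated arrays 1 and 4 scored 4.09 and 2.83, and the treated arrays scored -3.46 to -3.00. Of the 7453 probe sets bright enough to be tested, 670 (8.99%) in untreated array 3 and 238 in untreated array 2 lay at least 2-fold from the treated mean, against 85 in untreated array 1 and 102 in untreated array 4. Set against the mean of the other 2, the treated arrays differed at least 2-fold in 114 to 168 probe sets. A mean of 2 arrays varies more than the mean of 3 used for the untreated arrays. The counts of untreated arrays 1 and 4 and of the treated arrays are therefore not strictly comparable. The array's own control rows gave no check on this, because in untreated arrays 2, 3 and 4 all 66 of them equalled 1.2 times the controls of treated array 1, treated array 3 and untreated array 1 (tolerance 0.05). At most 89 of 12422 gene rows did so. Treated array 1 is also described with the same lot as untreated array 4, although their titles differ. Within that pair 191 of 7453 probe sets lay at least 2-fold apart.

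With all arrays, 0 of 7453 probe sets passed in limma at an adjusted p under 0.05 (0.0%, smallest adjusted p = 0.246, Benjamini-Hochberg). At an unadjusted p under 0.05 there were 1262 (16.9%), of which 652 (8.75%) were higher and 610 (8.18%) lower in treated brain. The groups did not overlap in 789 probe sets (10.6%), 368 (4.94%) of them higher and 421 (5.65%) lower with treatment. These counts turned on which arrays were used, treated as well as untreated. Leaving out treated arrays 1, 2 and 3 in turn gave 723, 1288 and 831 of 7453 at an unadjusted p under 0.05. At an unadjusted p under 0.05 the number was 1884 (25.3%) without untreated array 1 and 1717 (23.0%) without untreated array 4. It was 768 (10.3%) without untreated array 2 and 691 (9.27%) without untreated array 3. Without both of the latter, 304 probe sets were counted (4.08%), of which 189 (2.54%) were higher and 115 (1.54%) lower, and the median absolute log2 difference went from 0.21 to 0.13 while the median standard error was 0.18 and 0.19. A total of 188 probe sets, 115 higher and 73 lower, had an unadjusted p under 0.05 in each of 6 fits. These were the fit with all arrays and those that left out untreated arrays. The adjusted count was 0 without untreated arrays 3 or 4 in turn, 1 (0.0134%) without untreated array 2, 1 without untreated arrays 2 and 3 and 116 (1.56%) without untreated array 1.

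**Figure D1:**
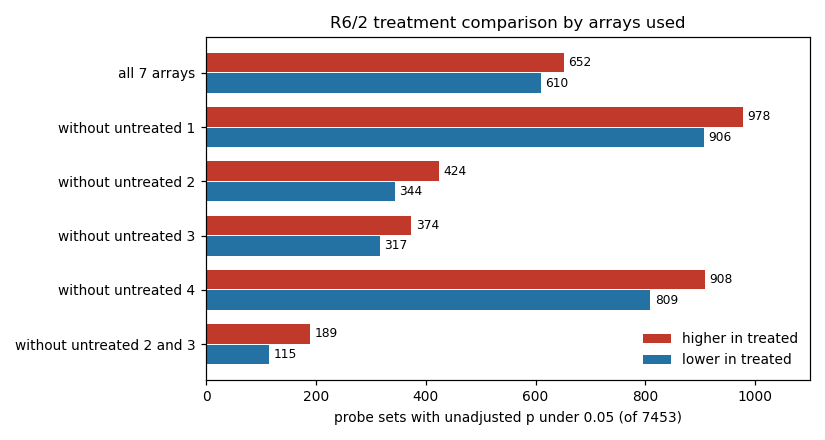
Number of probe sets (of 7453) with an unadjusted limma p under 0.05 in the comparison of treated with untreated R6/2 brain, split by direction, for all 7 arrays and with untreated arrays left out. The counts are largest without untreated array 1 (978 higher, 906 lower) and smallest without untreated arrays 2 and 3 (189 higher, 115 lower).

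The 12 genes that read higher with the smallest p-values and no overlap covered proteolysis, transcription, the cytoskeleton and metabolism. Each had an adjusted p of 0.246, so none passed, and each kept an unadjusted p under 0.05 in all 6 fits. These fits share arrays with the comparison that chose the genes, so that result is no separate support. Psmb2, a subunit of the proteasome core, read 203.6, 182.3, 162.9 and 197.9 in untreated arrays 1 to 4 and 324.1, 261.4 and 289 in treated arrays 1 to 3. The lowest treated value lay clear of the highest untreated one, and the log2 difference was 0.64 ± 0.13 (SE), or 0.53 without untreated arrays 2 and 3. Cdk9, the kinase that releases paused RNA polymerase II, read 217, 188.8, 157.2 and 189.5 untreated and 317.3, 308 and 295.6 treated. Its difference of 0.72 ± 0.15 (SE) was among the most even, with a treated SD of 10.9. Lmo1, a LIM-domain cofactor of transcription, read 58.2, 61, 50.2 and 77.7 untreated and 97.1, 94.6 and 105.2 treated, a log2 difference of 0.70 ± 0.15.

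Agt, the angiotensin precursor made by astrocytes, read 76.3, 44.8, 56.3 and 66 untreated and 110, 133.7 and 87.9 treated. The log2 difference was 0.87 ± 0.20 (SE) and 0.62 without untreated arrays 2 and 3. Psap, which encodes the precursor of the saposins that help lysosomal enzymes degrade sphingolipids, read 126.4, 106.4, 103.7 and 105.1 untreated and 170.8, 152.2 and 172.3 treated (0.58 ± 0.13). Its brightest probe set showed no such separation. It read 1117.3 to 1372 untreated and 1262.4 to 1513.1 treated, at 0.12 (limma, unadjusted p = 0.34). The remaining Psap probe set was at 0.62, and its groups overlapped too. Gys1, the glycogen synthase of muscle and brain, read 118.1 to 132 untreated and 155.3 to 189.6 treated, with a log2 difference of 0.46 ± 0.11 that hardly moved without untreated arrays 2 and 3 (0.38). Akt2, a kinase of insulin signalling, was at 1.00 ± 0.24, but at 0.53 without those arrays.

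P4hb, the protein disulfide isomerase of the endoplasmic reticulum, read 155.3, 125.6, 167.5 and 87.7 untreated and 318.6, 204.4 and 333.4 treated. Its log2 difference of 1.10 ± 0.27 (SE) was no smaller without untreated arrays 2 and 3 (1.26). Hus1, part of a clamp that signals DNA damage, read 6.7 to 22.6 untreated and 46.2 to 98.3 treated. All 4 untreated values of Hus1 were below 24.9, the mean signal that a probe set needed to be tested, and its other kept probe set was at 0.03. Pfn1, which encodes the actin-binding protein profilin, was likewise dim in untreated brain, at 11.7, 15.7, 31.6 and 12.3, and read 66.4, 48 and 60.5 treated (1.82 ± 0.44). The cytoskeletal genes Actb (2.15 ± 0.50 on its brighter probe set) and Septin9 (0.71 ± 0.17) complete the 12 and are described with untreated array 1.

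**Figure D2:**
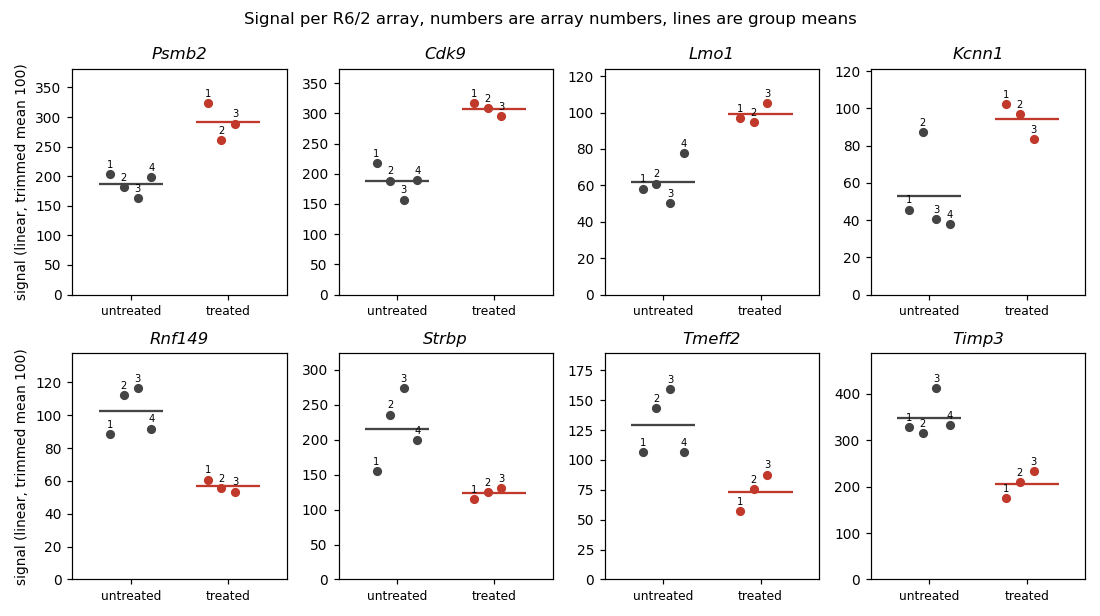
Linear signal of 8 genes in each R6/2 array (y axis, trimmed mean of an array about 100), with array numbers at the points and lines at the group means. Psmb2, Cdk9 and Lmo1 are higher and Rnf149, Strbp, Tmeff2 and Timp3 lower in all 3 treated arrays than in the 4 untreated arrays, while Kcnn1 has untreated array 2 (87.1) inside the treated range.

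The 12 genes that read lower likewise all had an adjusted p of 0.246, and an unadjusted p under 0.05 in all 6 fits, with the same limit. Rnf149, a membrane-bound ubiquitin ligase, had the smallest p-value of these 24 genes and read 88.5, 112.4, 116.5 and 91.9 untreated and 60.8, 55.8 and 53.5 treated. The treated arrays were tightly grouped (56.7 ± 3.7, SD, n = 3) against 102.3 ± 14.2 (SD, n = 4) untreated, a log2 difference of -0.84 ± 0.16. Strbp, an RNA-binding protein of brain and testis, read 155, 235.8, 273.2 and 199.6 untreated and 115.3, 125.3 and 130.5 treated. Untreated array 1 was the closest to the treated arrays, and the difference was -0.77 ± 0.16 with it and -0.92 without it. Tmeff2, a membrane protein with follistatin and EGF-like domains, read 106.5, 143.4, 159.3 and 106.3 untreated and 57.2, 75.6 and 87.8 treated (-0.81 ± 0.17).

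Timp3, an inhibitor of matrix metalloproteases, read 328.3, 316.3, 411.8 and 332.8 untreated and 176, 210.9 and 232.9 treated. Every treated value lay well below the lowest untreated one, and the log2 difference of -0.75 ± 0.17 was -0.69 without untreated arrays 2 and 3. Top1, the DNA topoisomerase that relaxes DNA ahead of polymerases, read 323.7, 404.7, 651.7 and 314.6 untreated and 181.9, 189.2 and 269.5 treated. Array 3 carried part of its difference, which was -0.95 ± 0.22 (SE) with all arrays and -0.60 without untreated arrays 2 and 3. Prdx4, a peroxiredoxin of the secretory pathway, was at -0.70 ± 0.17 and Cetn2, a centrin of the centrosome that also serves DNA repair, at -0.65 ± 0.16. Il18, a cytokine of the interleukin-1 family, read 44.1 to 66.1 untreated and 32.9 to 35.6 treated (-0.64 ± 0.16).

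Limch1, an activator of non-muscle myosin, was at -0.62 ± 0.15 and its other kept probe set at -0.05. Dipk2a, a secreted kinase-like protein, was at -0.92 ± 0.22, and at -0.58 without untreated arrays 2 and 3. Pdxdc1 showed how far a result could hang on 1 treated array. It read 101.2, 139.8, 85.6 and 125.2 untreated and 24.6, 14.5 and 82.8 treated, so that treated array 3 nearly met the lowest untreated value. The log2 difference was -1.84 ± 0.42 with all arrays. Without treated array 3, Pdxdc1 passed on both of its lower probe sets, at -2.55 and -1.89 (limma, adjusted p = 0.0020 each), together with a probe set to which the annotation gives no single gene. Another Pdxdc1 probe set pointed the other way, at 1.96 with all arrays. Chst2, a sulfotransferase of keratan sulfate synthesis, completes the 12 and is described next.

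Without untreated array 1, 116 probe sets passed (1.56%), 66 (0.886%) of them higher and 50 (0.671%) lower in treated brain. In 112 of the 116, untreated array 1 lay on the treated side of the other 3 untreated arrays, and in 67 it lay within the treated range or beyond it. All 116 had the same direction with all arrays and without untreated arrays 2, 3 or 4, and 114 had an unadjusted p under 0.05 with all arrays. Without untreated arrays 2 and 3, 48 did. The 116 were chosen in a fit that shares most of its arrays with these other fits. The place of untreated array 1 and the shared direction thus follow largely from that choice and are no separate support. Members of the gene lists described below were among the 116, such as Camk2a, Mt3, Gm2a, Dlg4 and Gpx3 (higher) and Cox7b, Idi1 and Tac1 (lower).

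Actb, the gene of cytoplasmic beta-actin, had the largest such difference among the named genes. On its brighter probe set it read 402.4, 53.8, 57.2 and 116.1 untreated and 480, 540 and 444.6 treated. Untreated array 1 thus sat just under the treated arrays and at 3 of 4 untreated arrays the signal was far lower. The log2 difference was 2.15 ± 0.50 with all arrays, 2.78 (adjusted p = 0.00037) without untreated array 1 and 1.17 without untreated arrays 2 and 3. The other Actb probe set gave 1.75 ± 0.45 and 2.35 (adjusted p = 0.00014). Both probe sets are of kinds that Affymetrix marks as able to read related transcripts, so other actin genes may contribute. Otub1, a deubiquitinating enzyme, read 168.2, 24.4, 19.7 and 45.5 untreated and 197.1, 217.6 and 159.7 treated. Here too untreated array 1 lay far above the other 3 untreated arrays. Its log2 difference was 2.76 without untreated array 1 (adjusted p = 0.00014) and 1.12 without untreated arrays 2 and 3, with its other kept probe set at 0.77.

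Klf13, a Krüppel-like transcription factor, read 165.4, 29, 46.1 and 30.6 untreated and 152.1, 186.4 and 83.7 treated, so untreated array 1 lay inside the treated range. Its log2 difference was 1.95 without untreated array 1 (adjusted p = 0.011) and 1.39 ± 0.47 with it, while the other Klf13 probe set was at 0.11. Septin9, a filament-forming GTPase, read 231.8, 135.3, 123.4 and 159 untreated and 250.8, 264.3 and 259.6 treated, and was at 0.90 without untreated array 1 (adjusted p = 0.010). Hnrnpl, a regulator of splicing, was at 1.26 (adjusted p = 0.014). Its treated range of 133 to 205.9 took in untreated array 1 at 155.6.

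Among genes that read lower, Chst2 read 103.6, 346.9, 360.1 and 156.7 untreated and 74.3, 83 and 83 treated. The difference of -1.75 without untreated array 1 passed (adjusted p = 0.015), against -1.41 ± 0.34 with all arrays and -0.67 without untreated arrays 2 and 3. The other kept Chst2 probe set was at -0.15. Strbp was at -0.92 (adjusted p = 0.014), and Sun1, which anchors the nucleus to the cytoskeleton, was at -0.68 (adjusted p = 0.019) with signals of 138.3, 194.2, 218.3 and 193 untreated and 120.6, 122.8 and 134.2 treated. Gria2, the AMPA receptor subunit that limits calcium entry, was at -0.69 on 1 probe set (adjusted p = 0.023) and read 215.8, 375.9, 356.4 and 309.7 untreated and 185.4, 227.7 and 233.5 treated. With all arrays its 3 kept probe sets were all lower, at -0.52, -0.60 and -0.46. Nfib, a transcription factor of glial and neuronal development, was at -0.83 (adjusted p = 0.023) and did not separate from untreated array 1, which read 131.4 against 137 to 156.2 treated.

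Kcnn1 was the 1 gene past the threshold when untreated array 2 was left out. It encodes a calcium-activated potassium channel that shapes the pause after an action potential. It read 45.7, 87.1, 40.5 and 38.1 untreated and 102.4, 96.8 and 83.4 treated. Untreated array 2 alone reached the treated level, and the log2 difference was 0.91 ± 0.23 with it, 1.18 without it (limma, adjusted p = 0.011) and 1.17 without untreated arrays 2 and 3 (adjusted p = 0.036).

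**Figure D3:**
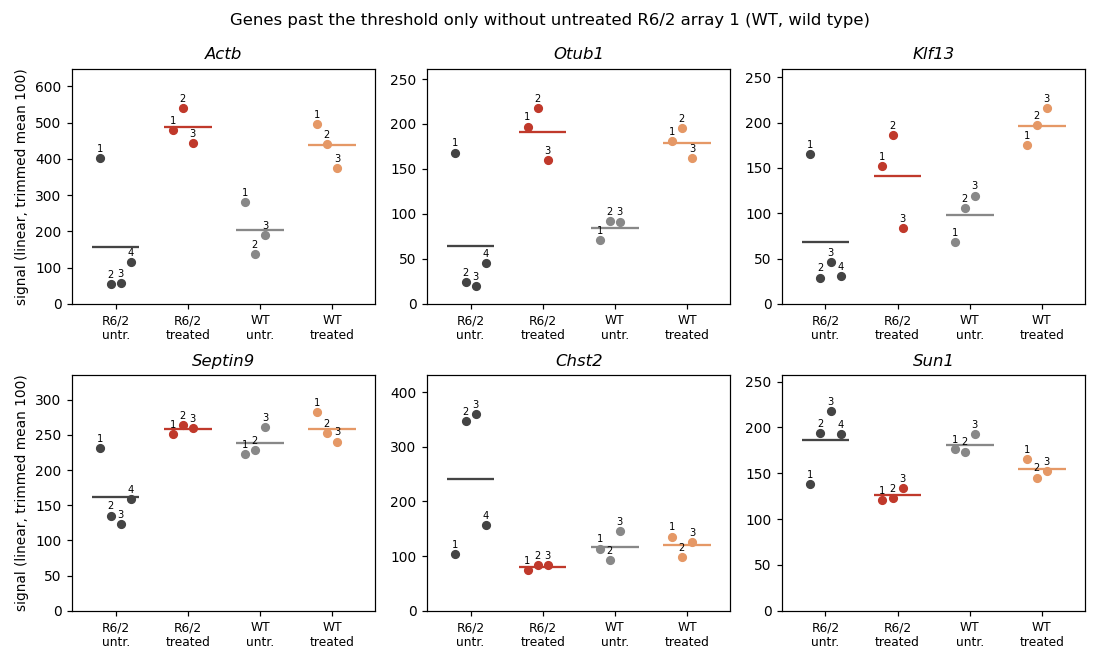
Linear signal of 6 genes that passed the threshold without untreated R6/2 array 1, in R6/2 and wild type (WT) arrays (untr., untreated; numbers are array numbers, lines are group means). In Actb, Otub1 and Klf13, untreated R6/2 array 1 (402.4, 168.2 and 165.4) reads near the treated R6/2 arrays and far above the other 3 untreated R6/2 arrays.

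The drugs' own targets did not pass. Of 13 cholinergic genes, 7 had a probe set of their own and 3 were bright enough to test. Ache, the acetylcholinesterase that tacrine inhibits, read 275.9, 153.8, 163.2 and 263.1 untreated and 326.1, 301.7 and 276.6 treated. The treated arrays lay just above untreated arrays 1 and 4 and well above untreated arrays 2 and 3. The log2 difference was 0.54 ± 0.20 (SE, adjusted p = 0.252) with all arrays and 0.16 without arrays 2 and 3. Chrm1, the M1 muscarinic receptor, read 100, 47.8, 51.5 and 108.9 untreated and 103, 129.8 and 128 treated, and its difference of 0.73 ± 0.25 was 0.20 without arrays 2 and 3. Chrna7, the alpha-7 nicotinic receptor subunit, was at 0.55 ± 0.27 and 0.46, and its groups overlapped. Butyrylcholinesterase (Bche), the vesicular acetylcholine transporter (Slc18a3), Chrm4 and Chrnb2 lay below the filter.

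Maoa, the enzyme that moclobemide inhibits, read 129, 171.3, 176.4 and 133 untreated and 156.2, 121.4 and 116.9 treated. These ranges overlapped, and the log2 difference of -0.21 ± 0.17 (adjusted p = 0.516) was -0.01 without untreated arrays 2 and 3. Of the 13 monoamine genes tested, Htr5a, a serotonin receptor, was the 1 with an unadjusted p under 0.05 (0.35 ± 0.15), where 8.74% of all 5676 genes were higher and 8.46% lower by that measure. The serotonin receptor gene Htr1b was at 0.75 ± 0.35 (adjusted p = 0.297), with dim signals of 13.9 to 33.2 untreated and 24.1 to 42.6 treated. Tyrosine hydroxylase (Th), which makes the dopamine precursor, was at 0.21 ± 0.20, the serotonin transporter Slc6a4 at 0.25 ± 0.25 and the decarboxylase Ddc at -0.21 ± 0.21. The median of the 13 was 0.18 with all arrays and 0.01 without untreated arrays 2 and 3.

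Of the 6 creatine genes tested, Ckb, the brain creatine kinase, read 1807.7, 1231.3, 952.1 and 1764 untreated and 2022.8, 2587.6 and 2027.2 treated. All treated arrays lay above all untreated ones, with a log2 difference of 0.66 ± 0.21 (adjusted p = 0.247), of which 0.30 was found without untreated arrays 2 and 3. Slc6a8, the transporter that brings creatine into cells, read 113.3, 148.9, 104.7 and 134.3 untreated and 107.2, 109.5 and 76.2 treated. Its groups overlapped, and the difference of -0.37 ± 0.16 (adjusted p = 0.272) was -0.36 without arrays 2 and 3. Gatm and Gamt, the enzymes of creatine synthesis, were at -0.11 ± 0.14 and -0.04 ± 0.14, and the mitochondrial kinase Ckmt1 at -0.08 ± 0.15. The other, dimmer Gamt probe set was at 0.32 (adjusted p = 0.263). It read 62.4 to 71.1 untreated and 80.4 to 86.4 treated. Ckm, the muscle kinase, was dim and at -0.54 ± 0.35.

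Activity-regulated early genes are transcribed within minutes when calcium and cAMP signals reach the nucleus of a firing neuron. Of 18 tested, 15 had estimates above 0, against 2942 of all 5676 genes. In 2 of the 18 every treated array lay above every untreated one, as in 287 of all genes. The summed signal of the 18 overlapped, at 2743.4 to 3630.1 untreated and 3087.6 to 3523.9 treated. At an unadjusted p under 0.05, 5 were higher and 0 lower, beside 8.74% higher and 8.46% lower among all 5676 genes tested, and none passed (adjusted p of 0.247 or more). Their median log2 difference was 0.22, against 0.02 for all genes. The median stayed between 0.19 and 0.26 when any 1 of the 7 arrays was left out, in fits that share most of their arrays. It was 0.23 without untreated arrays 2 and 3. In that fit 3 of the 18 were higher at an unadjusted p under 0.05, where 2.47% of all genes were higher and 1.48% lower. Without untreated array 1, 5 of the 18 were higher and 2 lower, beside 13.2% higher and 12.9% lower among all genes. Nptx2, a secreted pentraxin that clusters AMPA receptors, read 55.6, 50.5, 47.1 and 59.3 untreated and 104.5, 60.5 and 83.5 treated. The groups did not overlap, but treated array 2 lay close to untreated array 4, and the difference was 0.61 ± 0.19. Homer1, a scaffold of the postsynaptic density, read 23, 19, 6.2 and 25.3 untreated and 34.1, 30.2 and 33.1 treated, with a difference of 1.00 ± 0.38 that was 0.54 without untreated array 3.

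Ier2, an early response factor, read 42.3, 29.3, 33.4 and 34.9 untreated and 40.4, 62.1 and 49.1 treated (0.52 ± 0.19). Fosb, a partner of Jun in the AP-1 factor, was at 0.44 ± 0.17 and 0.18 without untreated arrays 2 and 3, and Dusp6, a phosphatase that switches off ERK, at 0.34 ± 0.15 and 0.34. The best-known members lay near 0 or little above it with all arrays: Fos was at 0.10 ± 0.19, Egr1 at 0.22 ± 0.14, Nr4a1 at 0.04 ± 0.15 and Btg2 at 0.02 ± 0.18. Below 0 were Jun (-0.30 ± 0.22), Jund (-0.15 ± 0.15) and the growth factor gene Bdnf (-0.41 ± 0.20). Bdnf read 151.8, 262.1, 259.7 and 147.6 untreated and 171.7, 140.2 and 137.6 treated, so that only untreated arrays 2 and 3 stood above the treated range.

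Many early genes are known to be switched on through a few short DNA elements near their starts. Their promoters (RefSeq, GRCm38.p6, from 250 bases before the gene's start) were searched on both strands for the full cAMP response element TGACGTCA, which CREB binds, and for the CArG box, which serum response factor binds. The table held 31 promoters of 20 of the genes, without Nptx2 and Ier2. The response element was found in 2 of the 31, those of Btg2 and Dusp1, and in 508 of all 32851 promoters (1.55%). The CArG box was found in 4 of the 31, all of Egr2 and some of them holding the same site, and in 482 of all promoters (1.47%). Counted by gene, the response element was in 2 of 20, beside 478 of all 27025 genes. The CArG box was in 1 of 20, beside 439 of all genes. The stretches that hold a match are given 5′ to 3′ on the gene's strand, with the matched letters in capitals, to show where the letters lie.
Btg2, chr1:134079278-134079357, minus strand: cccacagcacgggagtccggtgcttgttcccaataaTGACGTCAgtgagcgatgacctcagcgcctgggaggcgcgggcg
Dusp1, chr17:26508572-26508651, minus strand: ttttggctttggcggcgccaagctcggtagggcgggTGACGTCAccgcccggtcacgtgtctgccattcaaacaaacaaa
Egr2, chr10:67537761-67537842, plus strand: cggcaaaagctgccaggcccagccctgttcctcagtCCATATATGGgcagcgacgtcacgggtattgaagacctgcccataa
Egr2, chr10:67537458-67537539, plus strand: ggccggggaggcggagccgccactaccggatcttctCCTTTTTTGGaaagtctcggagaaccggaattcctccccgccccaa
None of these 3 genes was among the 5 higher at an unadjusted p under 0.05: Btg2 was at 0.02 ± 0.18, Dusp1 at 0.23 ± 0.15 and Egr2 at 0.23 ± 0.19. Fosb, Homer1 and Dusp6 had no match in these windows.

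Of 22 synaptic vesicle and neuronal genes tested, none passed. At an unadjusted p under 0.05, 3 were higher and 1 lower, beside 8.74% higher and 8.46% lower among all genes. Estimates were above 0 for 16 of the 22, against 2942 of all 5676 genes. The median was 0.21 with all arrays and 0.08 without arrays 2 and 3. Syp, which encodes synaptophysin of the vesicle membrane, read 240.7, 204.7, 119.7 and 273.8 untreated and 339, 333.8 and 320 treated. The treated arrays were tightly grouped above all untreated ones, and the difference was 0.72 ± 0.21 (adjusted p = 0.247) and 0.37 without arrays 2 and 3. Uchl1, an abundant neuronal ubiquitin hydrolase, was at 0.42 ± 0.17 and 0.09, and Eno2, the neuronal enolase, at 0.22 ± 0.10 and 0.09. Syt4, a synaptotagmin of dense-core vesicles, was lower (-0.48 ± 0.18), with no overlap between the groups.

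Among 17 glutamate and GABA genes, 4 were higher and 1 lower at an unadjusted p under 0.05, beside 8.74% higher and 8.46% lower among all genes. Slc1a2, the main glutamate transporter of astrocytes, read 52.5, 45.3, 48.3 and 53.4 untreated and 85.4, 75.9 and 90.6 treated. Both groups were tight and far apart, the difference was 0.75 ± 0.19 (adjusted p = 0.246), and it was 0.66 without untreated arrays 2 and 3. Grin2c, an NMDA receptor subunit, was at 0.47 ± 0.15 and 0.30, and Dlg4, the scaffold PSD-95, at 0.65 ± 0.20 and 0.25. Of 19 calcium signalling genes 3 were higher and 3 lower. Camk2a, the calmodulin-dependent kinase of excitatory synapses, read 58.7, 8.4, 9 and 36 untreated and 74.4, 90.9 and 82.5 treated. Its difference of 2.04 ± 0.54 was 0.84 without arrays 2 and 3, where its signal was lowest, and the other Camk2a probe set was at 2.07. Parvalbumin (Pvalb) was at 0.41 ± 0.16 on the brighter probe set and -0.08 on the other, calbindin (Calb1) at -0.38 ± 0.14, and the calcium pump Atp2a2 at -0.42 ± 0.16.

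Genes listed for the projection neurons of the striatum, whose specificity to these cells was not tested, did not lie higher with treatment as a group. Of 11 tested, 1 was higher and 4 lower at an unadjusted p under 0.05, beside 8.74% higher and 8.46% lower among all genes. In all 11 the groups overlapped, as they did in most genes: 287 of all 5676 lay above and 335 below in every treated array. Without untreated arrays 2 and 3, 0 were higher and 1 lower (2.47% of all genes were higher and 1.48% lower in that fit). The median was -0.05 with all arrays and -0.17 without untreated arrays 2 and 3. Penk, the enkephalin precursor, read 645.5, 861.8, 1012.2 and 695.2 untreated and 654.5, 602.5 and 674.9 treated. Its groups overlapped through untreated array 1. Tac1, the precursor of substance P, read 123.3, 193.1, 199.8 and 152 untreated and 114, 112.9 and 123.6 treated, and was at -0.49 ± 0.16 (adjusted p = 0.247) and -0.63 without untreated array 1 (adjusted p = 0.048). Ptpn5, the striatal phosphatase STEP, was at -0.46 ± 0.14 and -0.34 without arrays 2 and 3. Arpp19, a phosphatase inhibitor, was at -0.52 ± 0.18 and -0.22 on its other probe set. Pde1b, a calmodulin-dependent phosphodiesterase, was the 1 higher (0.38 ± 0.16, 0.18 without arrays 2 and 3). In the neuropeptide list of 13, Chgb (chromogranin B) was at -0.42 ± 0.16 and Pcsk1n, an inhibitor of prohormone convertase, at 0.54 ± 0.23, and the median was -0.01.

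Nuclear-encoded genes of the respiratory chain had list medians of -0.13 to -0.07 with all arrays and -0.09 to -0.05 without untreated arrays 2 and 3. None passed. Of 26 complex I genes 7 were lower and 0 higher at an unadjusted p under 0.05, beside 8.46% lower and 8.74% higher among all genes. Estimates were above 0 for 8 of the 26, against 2942 of all 5676 genes. Without untreated arrays 2 and 3, 1 of the 26 was lower (1.48% of all genes were). The median was -0.07 with all arrays and -0.09 without those 2. Ndufb9, an accessory subunit, read 575.6, 652.4, 697.4 and 543.5 untreated and 431.2, 502.3 and 440.3 treated, a log2 difference of -0.43 ± 0.12 that was -0.29 without those arrays. Ndufb5 was at -0.45 ± 0.15 and -0.20, Ndufs1 at -0.37 ± 0.15 and -0.19, and Ndufc1 at -0.54 ± 0.20 and -0.38. Among 13 genes of complexes II and III 2 were lower, Uqcrc2 (-0.50 ± 0.19) and the electron carrier cytochrome c (Cycs, -0.41 ± 0.16).

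Of 10 complex IV genes 2 were lower and 1 higher at an unadjusted p under 0.05, beside 8.46% lower and 8.74% higher among all genes. Cox7b read 565.6, 856.5, 845.8 and 611 untreated and 466, 491.8 and 461 treated, and its difference of -0.58 ± 0.15 (adjusted p = 0.246) was -0.31 without untreated arrays 2 and 3. It was -0.69 without untreated array 1 (limma, adjusted p = 0.032). Even untreated array 1, the lowest of its group, lay above every treated array. Cox17, a copper chaperone of the complex, was at -0.33 ± 0.13. Cox6a2, the heart and muscle isoform, went the other way (0.38 ± 0.15), from 32.4 to 43.9 untreated to 44.6 to 52.7 treated. None of 12 ATP synthase genes had an unadjusted p under 0.05, and Atp5a1 and Atp5c1 had estimates near 0 without arrays 2 and 3 (0.01 and 0.06). Of 17 citrate cycle genes 3 were lower: Suclg1 (-0.36 ± 0.15), Fh1 (-0.32 ± 0.15) and Mdh2 (-0.29 ± 0.12).

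Of 15 glycolytic genes 5 were higher and 0 lower at an unadjusted p under 0.05, beside 8.74% higher and 8.46% lower among all genes, and the median was 0.12. Without untreated arrays 2 and 3, 0 of the 15 were higher (2.47% of all genes were) and the median was 0.02. Aldolase A (Aldoa) read 2058.4, 1504.2, 1494.5 and 1668.5 untreated and 2196.2, 2363.5 and 2024.6 treated. Treated array 3 overlapped untreated array 1, and the difference was 0.39 ± 0.13 with all arrays and 0.24 without arrays 2 and 3. Pfkl, a phosphofructokinase, was at 0.31 ± 0.13, pyruvate kinase (Pkm) at 0.29 ± 0.13 and triosephosphate isomerase (Tpi1) at 0.27 ± 0.11. The other kept Pkm probe set was at 0.06.

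Protein folding genes were not past the threshold either. Of 34 chaperone genes 8 were lower and 0 higher at an unadjusted p under 0.05, beside 8.46% lower and 8.74% higher among all genes. Of the 34, 11 had estimates above 0, against 2942 of all 5676 genes. The median was -0.07 with all arrays and -0.10 without untreated arrays 2 and 3. Hspa5, the chaperone BiP of the endoplasmic reticulum, read 591, 644.3, 699.5 and 524.2 untreated and 469.7, 534.7 and 408.2 treated (-0.39 ± 0.12). Treated array 2 overlapped untreated array 4. Dnaja1, a partner of HSP70, read 1152.2, 1570.5, 2067.6 and 1282.7 untreated and 876.2, 1216.7 and 978.9 treated, and was at -0.55 ± 0.19 and -0.26 without arrays 2 and 3. Hspe1 of the mitochondrial chaperonin was at -0.44 ± 0.16 and -0.19. The chaperonin subunit Cct2 was at -0.36 ± 0.13 and was as low without those arrays (-0.36), where it was the 1 of the 34 with an unadjusted p under 0.05 (1.48% of all genes were lower in that fit). Cct2, Hspe1, Cct8 (-0.42) and Dnajb6 (-0.40) did not overlap between groups, 4 of 34, beside 335 of all 5676 genes lower in every treated array.

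In the proteasome list of 32 genes, Psmb2 was the 1 higher and 6 were lower at an unadjusted p under 0.05. Among all genes 8.74% were higher and 8.46% lower. Of the 32 estimates, 10 were above 0, against 2942 of all 5676. Every treated array lay above every untreated one for 3 genes, Psmb2, Psmb5 (0.31) and Psmc5 (0.21), and below for 3. Of all 5676 genes, 287 lay above and 335 below in this way. For the list the median of -0.11 was -0.02 without untreated arrays 2 and 3. Of those lower, the regulatory subunits Psmd1 (-0.40 ± 0.17) and Psmd7 (-0.34 ± 0.13) did not overlap between groups, and the ATPase Psmc6 (-0.38 ± 0.14) did. Lysosomal genes showed 2 higher of 28 and a median of 0.01. Gm2a, the activator protein of ganglioside breakdown, read 153.8, 85.3, 88.7 and 110.5 untreated and 181.8, 148.3 and 180.2 treated, with untreated array 1 overlapping, and was at 0.67 ± 0.18 and 0.38 without arrays 2 and 3. The protease cathepsin Z (Ctsz) was at 0.45 ± 0.19 and 0.50.

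Among 24 antioxidant genes 2 were higher and 1 lower at an unadjusted p under 0.05, beside 8.74% higher and 8.46% lower among all genes. Gpx3, a secreted glutathione peroxidase, read 162.4, 93.6, 93.5 and 145 untreated and 193.9, 171.7 and 189.1 treated (0.62 ± 0.19, 0.27 without untreated arrays 2 and 3). Superoxide dismutase (Sod1) was at 0.46 ± 0.17 and 0.21. The lower one was Prdx4, named above. In the sterol synthesis list 2 of 13 were lower, Idi1 (-0.54 ± 0.19) and Sqle, the squalene epoxidase (-0.39 ± 0.15). Of 19 ribosomal protein genes Rpsa was higher (0.31 ± 0.11, 0.30 without arrays 2 and 3) and Rpl7 and Rpl13a lower (-0.33 ± 0.15 and -0.36 ± 0.13).

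The circadian clock list held 4 genes higher and 2 lower of 17 at an unadjusted p under 0.05, beside 8.74% higher and 8.46% lower among all genes. Bhlhe40, a repressor within the clock that is also induced by neuronal activity, read 96.1, 86.8, 73.4 and 76.9 untreated and 108.2, 129.3 and 108 treated. The groups did not overlap, and the difference of 0.47 ± 0.14 was 0.42 without untreated arrays 2 and 3. Cry2, a core repressor, read 108.8, 72.8, 48.6 and 137.7 untreated and 141.4, 157.6 and 140.7 treated, and its difference of 0.78 ± 0.29 was 0.26 without those arrays. Per1 was at 0.44 ± 0.17 and 0.18, while Per2 (-0.59) and Cry1 (-0.34) were lower. The labels give no time of day for any sample. Of 16 glucocorticoid-induced genes 3 were higher and 2 lower. Zbtb16, a zinc finger repressor, read 259.7, 268.7, 357.8 and 225.6 untreated and 173.7, 193.3 and 162.9 treated, with no overlap and a difference of -0.64 ± 0.16 (-0.46 without arrays 2 and 3). Cebpb, a transcription factor of the acute response, was at 0.42 ± 0.18.

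The glial lists had medians of 0.07 (myelin), 0.05 (astrocyte) and 0.15 (microglia and complement) with all arrays, against 0.02 for all genes. Without untreated arrays 2 and 3 these were 0.12, 0.03 and -0.0023. At an unadjusted p under 0.05, beside 8.74% higher and 8.46% lower among all genes, 2 of 9, 3 of 17 and 1 of 10 were higher and 0, 1 and 0 lower. Of the myelin genes Mag (0.64 ± 0.22) and Sox10, a transcription factor of oligodendrocytes (0.36 ± 0.16), were higher, and Mbp overlapped between groups (0.23 ± 0.16). The other kept Mag probe set was at 0.14. Of the astrocyte genes Agt, Slc1a2 and the metallothionein Mt3 were higher and the gap junction gene Gja1 lower. Mt3 read 1873.6, 794.1, 896.4 and 1173.2 untreated and 1861.4, 2168.8 and 1780.1 treated, and untreated array 1 lay among the treated arrays (0.79 ± 0.24, 0.38 without untreated arrays 2 and 3). Gfap, the intermediate filament of reactive astrocytes, read 191.9 to 237.7 untreated and 185.5 to 242.1 treated. Of the microglial and complement genes Cx3cr1, the fractalkine receptor, was higher (0.41 ± 0.17, 0.24 without arrays 2 and 3). Of 14 interferon and class I genes Tapbp was higher (0.51 ± 0.18), with its other kept probe sets at 0.02 and 0.68. In RNA of a whole hemisphere, fewer cells of a type and less RNA per cell cannot be told apart.

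**Figure D4:**
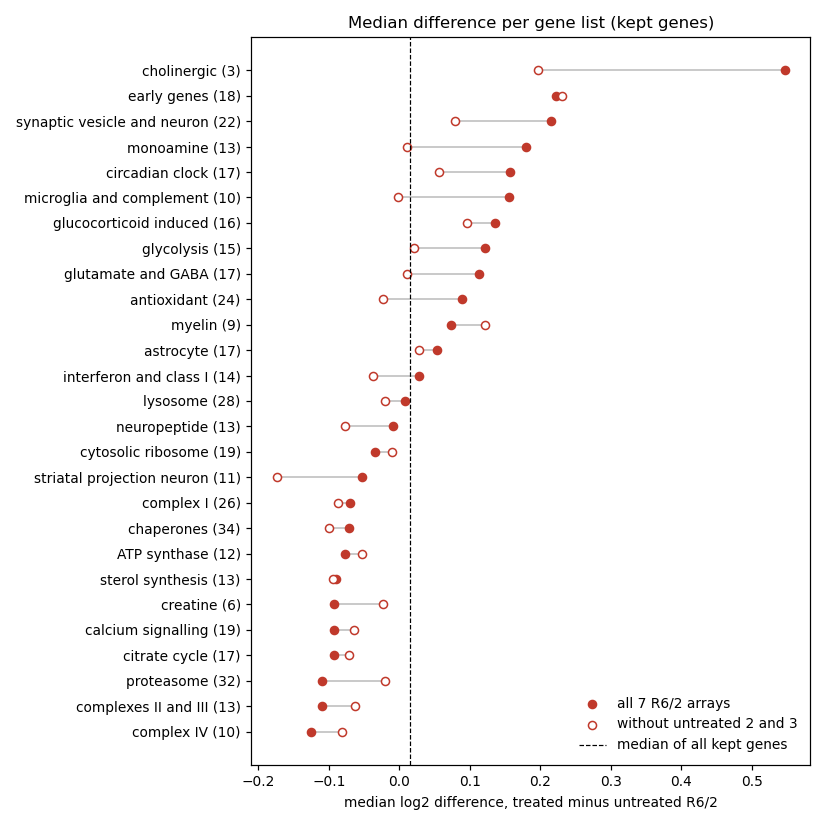
Median log2 difference (treated minus untreated R6/2) over the tested genes of each list, number of genes in parentheses, with all 7 arrays (filled) and without untreated arrays 2 and 3 (open); the dashed line is the median of all 5676 genes. The early genes stay at 0.22 and 0.23, while the cholinergic median goes from 0.55 to 0.20 and the monoamine median from 0.18 to 0.01.

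Markers of tissue that can vary between dissected hemispheres were examined beside these values. Genes are called higher or lower here at an unadjusted p under 0.05, beside 8.74% higher and 8.46% lower among all genes. Neuronal, myelin and astrocyte markers (Snap25, Mbp, Gfap) were bright in all 7 arrays, as the labelled tissue requires. Of the 3 red blood cell genes tested Alas2, the erythroid enzyme of haem synthesis, was higher (12.8 to 27.3 untreated, 29.9 to 43 treated), and the alpha-globin gene Hba-a1 read 578.3 to 1324.8 untreated and 660.9 to 1596.1 treated. The summed signal of the 3 was 904.4 to 1871.9 untreated and 927.5 to 2146.3 treated. Of 14 endothelial and mural genes Cldn5 of tight junctions was higher (0.48 ± 0.21) and Timp3 lower, with summed signals of 1122.1 to 1163.5 and 1059.1 to 1152. Of 7 choroid plexus and ependyma genes Igfbp2 was higher (0.45 ± 0.18), and Ttr, the defining transcript, read 470.8 to 839.5 and 414.6 to 559.7. Of 11 hypothalamus and thalamus genes Oxt was higher (0.38 ± 0.16), and of 12 cortex and hippocampus genes Camk2a was higher and Neurod6 (-0.64 ± 0.25) and Ccn3 (-0.52 ± 0.18) lower. Of 8 cerebellar genes Pvalb was higher and Calb1 lower, and none of 4 midbrain monoamine genes had an unadjusted p under 0.05. Avp, Gabra6 and Slc6a3 lay below the filter in this tissue. The part of tissue composition in the gene differences was not tested.

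The same drugs were given to wild type mice, on arrays that share none with the R6/2 comparison. By limma with Benjamini-Hochberg adjustment 0 probe sets passed there too (0.0%), with a smallest adjusted p of 0.0522. An unadjusted p under 0.05 was found for 769 (10.3%), and 1622 (21.8%) did not overlap between groups. Groups of 3 and 3 arrays separate more readily than the 3 and 4 of R6/2 brain. The non-overlap counts of the genotypes are therefore not comparable. The test of whether treatment acted differently in the 2 genotypes gave 0 passing probe sets (0.0%, smallest adjusted p = 0.305) and 1003 (13.5%) at an unadjusted p under 0.05. Across the 7453 probe sets, which are not independent, the 2 treatment effects had a correlation of -0.05, and of 0.0038 without untreated R6/2 arrays 2 and 3.

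Some of the genes above also read higher in every treated wild type array than in any untreated one, with estimates that differed in size from those in R6/2 brain. Actb read 281.4, 136.2 and 189.1 in untreated and 496.3, 440.2 and 374.5 in treated wild type arrays. Its log2 difference was 1.17 ± 0.54 (adjusted p = 0.481) there and 2.15 ± 0.50 in R6/2 brain. Otub1 read 70.6 to 91.9 untreated and 161.6 to 195.2 treated, at 1.09 ± 0.54 against 2.12 in R6/2 brain. Klf13 read 68.3 to 119.5 and 175.7 to 216.5, at 1.04 ± 0.50 against 1.39. Psap, on the dimmer probe set that separated in R6/2 brain, read 105.7 to 127 and 143.2 to 175.8, at 0.46 ± 0.14 against 0.58. Pfn1 read 23, 30.1 and 13.7 untreated and 55, 42.7 and 159.3 treated. Untreated signals of Pfn1 lay mostly below 24.9 in both genotypes, so it was bright enough to test through its treated arrays, and its estimates of 1.77 ± 0.47 and 1.82 ± 0.44 are given as values only. None of these passed in wild type brain.

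For others the 2 genotypes' estimates had opposite signs, though no difference between genotypes passed (adjusted p = 0.305 for each of those named here). Syp read 572.8, 468 and 442.5 in untreated and 276.8, 311.1 and 264.8 in treated wild type brain, lower with treatment (-0.79 ± 0.23) where R6/2 brain was higher, and the genotype difference of the treatment effect was 1.52 ± 0.31 (SE). Strbp was at 0.22 ± 0.18 in wild type brain against -0.77 in R6/2, Hspa5 at 0.31 ± 0.13 against -0.39, and Zbtb16 at 0.33 ± 0.17 against -0.64. Agt was at -0.16 ± 0.21 against 0.87, and Cry2 at -0.71 ± 0.31 against 0.78. The estimates for Alas2, the red blood cell marker, had the same directions as those for Syp, at -1.48 ± 0.43 in wild type and 0.90 ± 0.40 in R6/2 brain. The early gene median was 0.14 in wild type brain and 0.22 in R6/2 brain.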

How the data were processed

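Values came from the deposited table of the series, which holds for each array a linear intensity per probe set that the authors had brought to a common level (trimmed mean 100.047 to 100.128 per array). The software and the steps before it are not given in the sources used here. Arrays carry no read depth, and their number limits the precision. Array numbers within a group follow the order of deposit and pair no samples.

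The 66 control rows were left out. Values under 3.1, the 10th percentile, were set to 3.1 and log2 was taken, with no further normalization. Of 12422 gene probe sets, the 7453 whose mean log2 reached the 40th percentile (24.9 as a signal) were kept. The array's annotation gave 10833 probe sets 1 gene, 396 several and 1193 none, and symbols were updated through gene identifiers. The 5676 genes kept were each represented by their brightest probe set annotated to them alone.

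A mean per group was fitted over all 13 arrays with limma 3.58.1 in R 4.3.3 (moderated variances with an intensity trend), and Benjamini-Hochberg adjustment ran over all kept probe sets, with a threshold of 0.05. Log2 differences are treated minus untreated. Gene lists are described by counts and medians, with no test. The fit was tested on simulated data. Fits left out each R6/2 array in turn and untreated arrays 2 and 3 together, and other alternatives changed the scaling, floor, filter, pseudocount, spread estimate, arrays fitted and choice of probe set.

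Named were the 12 higher and 12 lower genes of smallest p without overlap, the 5 per direction of smallest p past the threshold in a fit without 1 untreated array, the drug target genes, up to 4 members per list and markers. Others are named where a count of 5 or fewer called for it, chosen after their values were seen. Comparisons, members and lists were chosen with earlier results of these data known. Promoter sequences are RefSeq's for GRCm38.p6.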

Additional observations from a re-analysis of the deposited data

Results flagged for a closer look

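Within the 4 untreated R6/2 arrays, 1 array stood far from the other 3 in 7 of the 158 probe sets of named genes examined, by Dixon's test at the 95% level. Chance flags about 1 in 20 groups. Untreated array 1 was the high one for Actb (295.3 on its dimmer probe set), Klf13 (165.4) and Psap (126.4). Untreated array 3 was the low one for the myelin gene Mbp (932.6) and for Igfbp2 (104.7). Untreated array 2 was the high one for the potassium channel gene Kcnn1 (87.1), and untreated array 4 for the serotonin transporter gene Slc6a4 (52.4).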

How the results depend on the processing

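The count of 0 probe sets past the threshold was 0 to 116 when single arrays were left out, and 1 without untreated arrays 2 and 3 (Kcnn1) and without the filter (a probe set with no single gene, at signals of 1.3 to 4.9). The count at an unadjusted p under 0.05 was 691 to 1884 with single arrays left out, 304 without untreated arrays 2 and 3 and 827 when only the 7 R6/2 arrays were fitted. Non-overlapping probe sets numbered 917 to 1928 with single arrays left out and 1322 without untreated arrays 2 and 3, where fewer arrays have to be separated. Of 2686 values of named genes under alternatives, 2639 kept their direction and side of the threshold, 33 passed in an alternative only and 14 changed sign. Without untreated arrays 2 and 3 these were Atp5a1 (0.0061), Atp5c1 (0.0568), Calb2 (-0.0646), Ckmt1 (0.0469), Ddc (0.0249), Gatm (0.0917), Msmo1 (0.0288), Nrgn (-0.0064), Sst (-0.002) and Th (-0.0136). With single arrays left out, Gamt ranged from -0.117 to 0.0859, above 0 without treated array 2, and Hbb-b2 from -0.0794 to 0.4745, below 0 (-0.0448, -0.0753 and -0.0794) without treated array 2, treated array 3 and untreated array 4. The causes were not tested. Of 612 list medians under alternatives, 592 moved by less than the SD of the untreated arrays. Dividing each array by its median shifted the median of all genes to -0.03 from 0.02. No paired analysis was possible because the groups compared share no replicate numbers, and the 1 lot named for both holds 1 array of each.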
